A study of Mus musculus with 20 samples.

Results

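The genes described here are 10 markers of tissue-resident macrophages, of the kind found along blood vessels in fat: Folr2, Mrc1, Cd163, Lyve1, Siglec1, Clec10a, Cbr2, F13a1, Stab1 and Ms4a6c. The rule names these genes and sets no threshold on a measured value, but they were picked with earlier results of these data known. All 10 were found by Ensembl identifier among the 14776 genes of the deposited table, and all 10 passed the filter on low values in every comparison.

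Fat holds macrophages that settle around blood vessels and renew themselves locally. They take up folate, haemoglobin, hyaluronan and glycoproteins through the surface receptors on this list, and are kept alive by colony stimulating factor 1. In obesity a further macrophage population, loaded with lipid and marked by Trem2 and Gpnmb, gathers around dying adipocytes. Some of the 10 genes are used by other cells as well. Lyve1 and Stab1 are also made by lymphatic or sinusoidal endothelium and Clec10a by dendritic cells.

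The tissue was epididymal fat (eWAT), taken from C57BL/6J males that were 6 weeks old when feeding began. The normal chow group (NC, 6 mice by the labels) received a maintenance feed. The high-fat diet group (HFD, 7 mice) ate feed in which fat supplied 60% of the energy, for 14 weeks and then for 6 more during which saline was given into the stomach. The SZ-A group (7 mice) had the same diet and, in the last 6 weeks, Ramulus Mori (Sangzhi) alkaloids, an extract of mulberry twig, by the same route at 400 mg per kg per day. No mouse carried a transgene or deletion, and each library was labelled as a separate sample of its group. The comparisons ask how mice on the diet differed from chow mice (HFD against NC) and what SZ-A did on the diet (SZ-A against HFD). The last asks how far the treated mice were from chow mice (SZ-A against NC). HFD against NC, called the diet comparison below, may hold a difference in dosing with saline as well as in feed. They are not independent, because each pair of comparisons shares a group of mice.

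Values are FPKM, fragments per kilobase of gene scaled to the size of the library, so levels can be set side by side between genes. Between 13567667 and 19388628 reads per mouse lay on the deposited genes. The adipocyte marker Adipoq was at 222 FPKM or more in all mice but 1. The library labelled NC replicate 6 stood apart from the other chow mice. It had 23.0 FPKM of Lpl, the adipocyte lipase, against 295.5 to 887 in the others, and 420 FPKM of Adgrg2, a receptor of epididymal epithelium, against 5.69 to 29.97. It was also the lowest chow mouse for all 10 resident macrophage genes, with 1 read of Folr2 and 3 reads of Lyve1. Whether its tissue makeup set these low values was not tested. Other chow mice also held RNA of epithelium or smooth muscle. The keratin Krt18 was at 454 FPKM in NC replicate 1 and 452 FPKM in NC replicate 6. Smooth muscle genes summed to 1473 and 1760 FPKM in NC replicates 2 and 5, and to 1064 FPKM in NC replicate 6. In HFD mice that sum was 60.3 to 303 FPKM. Leaving out NC replicate 6 therefore does not free the chow group of such RNA. Values without NC replicate 6 are given beside some, not all, of the results whose call, direction or size it changes. In whole-tissue RNA, fewer macrophages and less RNA per macrophage cannot be told apart.

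The 10 genes lie on 7 chromosomes of GRCm38, all protein-coding in GENCODE release M21. Folr2 (chr7:101839988-101857194, minus strand), F13a1 (chr13:36867178-37050244, minus strand), Stab1 (chr14:31139013-31168641, minus strand) and Ms4a6c (chr19:11469366-11482192, plus strand) share exonic bases with a gene on the opposite strand, respectively Gm10602, Gm30489, Nt5dc2 and BE692007. The counting is not stated to use strand, so reads over those bases could come from either gene. Clec10a (chr11:70156197-70170834, plus strand) shares 2.64% of its 100-base stretches with Mgl2, and Cbr2 (chr11:120729489-120732114, minus strand) shares 5.37% with Gm11771, which makes a small portion of their reads uncertain.

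Promoters of 7 of the 10 genes were matched in RefSeq for GRCm38.p6, those of Folr2, Mrc1, Cd163, Cbr2, F13a1, Stab1 and Ms4a6c. Shown here are the 250 bases before the start of 4 of them, 5′ to 3′ on the strand of the gene, chosen to set a gene with and a gene without the PU.1 core beside each other among those that SZ-A lowered (Mrc1 and Folr2) and those it did not measurably change (F13a1 and Cd163). PU.1 is the factor that specifies macrophages, and capitals mark its core GAGGAA, or TTCCTC where it reads on the other strand. The windows are chr2:14229164-14229413 (plus strand) for Mrc1, chr7:101857191-101857440 (minus strand) for Folr2, chr13:37050245-37050494 (minus strand) for F13a1 and chr6:124304401-124304650 (plus strand) for Cd163.
Mrc1: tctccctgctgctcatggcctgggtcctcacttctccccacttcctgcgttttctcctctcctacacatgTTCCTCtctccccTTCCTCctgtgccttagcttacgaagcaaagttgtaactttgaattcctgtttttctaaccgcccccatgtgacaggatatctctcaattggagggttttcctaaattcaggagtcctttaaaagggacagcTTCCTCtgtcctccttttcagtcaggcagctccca
Folr2: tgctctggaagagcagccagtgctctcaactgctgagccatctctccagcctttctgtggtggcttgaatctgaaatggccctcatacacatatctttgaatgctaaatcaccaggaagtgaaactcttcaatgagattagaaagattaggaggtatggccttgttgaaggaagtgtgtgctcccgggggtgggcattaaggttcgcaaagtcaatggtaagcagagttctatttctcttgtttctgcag
F13a1: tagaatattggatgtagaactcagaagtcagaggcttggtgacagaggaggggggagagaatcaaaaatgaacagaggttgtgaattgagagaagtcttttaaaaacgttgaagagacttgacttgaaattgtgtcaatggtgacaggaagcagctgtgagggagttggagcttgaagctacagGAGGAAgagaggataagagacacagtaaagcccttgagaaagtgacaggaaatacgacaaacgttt
Cd163: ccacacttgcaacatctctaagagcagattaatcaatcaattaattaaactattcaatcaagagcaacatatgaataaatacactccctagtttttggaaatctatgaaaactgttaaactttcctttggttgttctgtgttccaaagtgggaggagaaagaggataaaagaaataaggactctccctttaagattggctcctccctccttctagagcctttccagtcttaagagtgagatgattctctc
Mrc1 held 3 of these cores, and Cbr2, F13a1 and Stab1 held 1 each, at 79, 66 and 30 bases before the start. Thus 4 of the 7 matched promoters held the core, against 23.3% of 32851 promoters of the same length in the table. The MAF motif TGCTGAC (3.81% of all promoters) and the STAT6 motif TTCNNNNGAA (5.85%) were in 0 of the 7, and the RBPJ motif TGGGAA (21.6%) was in Cbr2 and Ms4a6c. All motifs were searched on both strands, a match is only a run of letters, and 2 of the 4 matched genes that fell with SZ-A held the PU.1 core, as did 2 of the 3 that were not called.

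Under the high-fat diet the list split. Folr2, Mrc1, Siglec1, Stab1, Ms4a6c and Clec10a rose, by 2.20 to 3.20 on the log2(FPKM + 1) scale, while Cd163, Lyve1, Cbr2 and F13a1 did not pass the test. With SZ-A on the diet, 5 of the 6 genes that the diet had raised were lower than in HFD mice, by 1.09 to 1.98, and the 4 others again did not pass. The level of each gene in each mouse is given first, in the order of the roles of the genes.

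**Figure D1:**
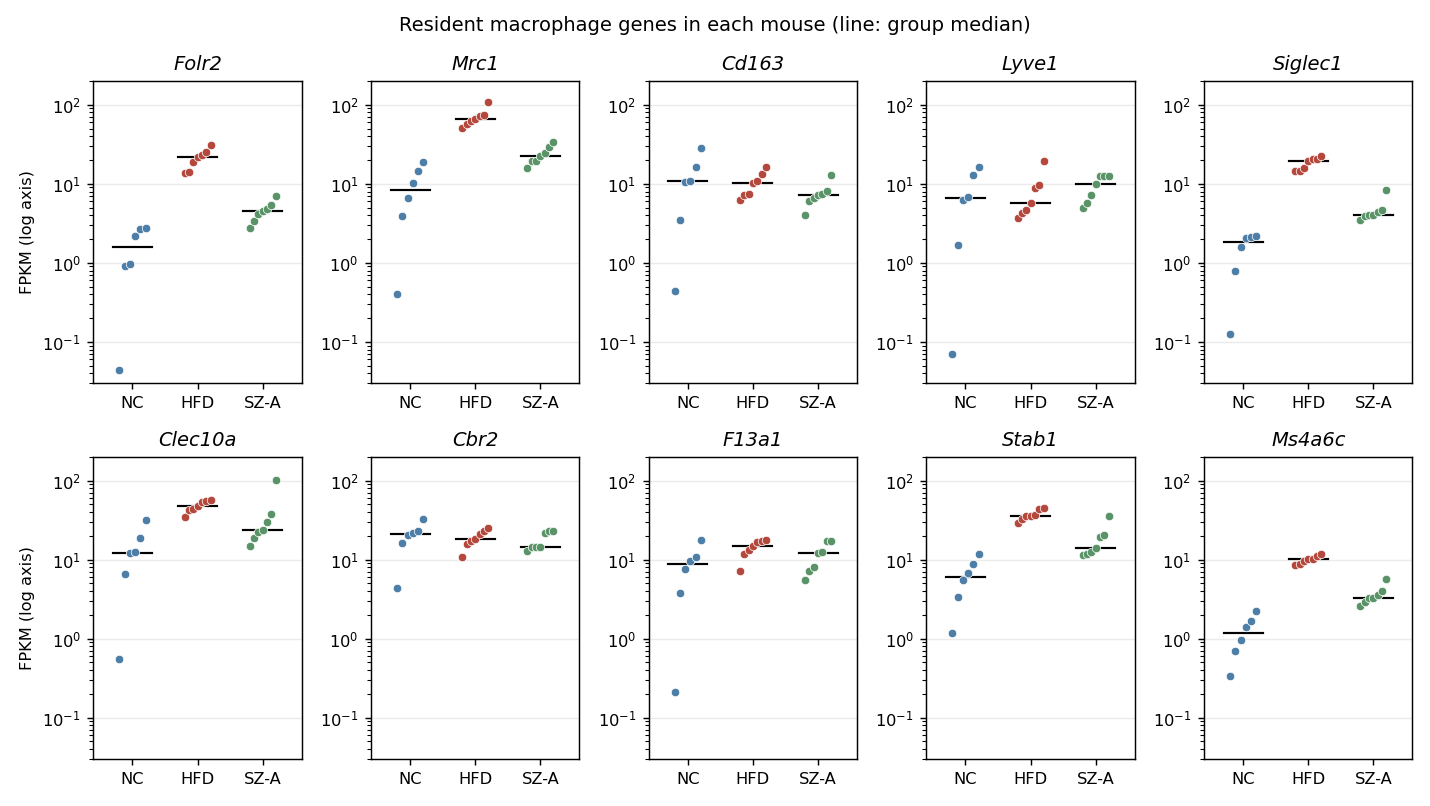
Level of each of the 10 resident macrophage genes in each mouse, in FPKM on a log axis, for the NC, HFD and SZ-A groups; each point is a mouse and each line a group median. Folr2, Mrc1, Siglec1 and Ms4a6c form separate bands in HFD and SZ-A mice, and Cd163, Lyve1, Cbr2 and F13a1 overlap between all groups.

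Among the scavenger receptors, Mrc1, the macrophage mannose receptor that clears glycoproteins and collagen fragments, was at a lowest, median and highest level of 0.409, 8.42 and 18.7 FPKM in NC mice, 50.7, 66.5 and 109 FPKM in HFD mice, and 15.8, 22.8 and 33.4 FPKM in SZ-A mice. Every HFD mouse was above every mouse of both other groups, and NC and SZ-A mice overlapped. Stab1, the stabilin-1 receptor for SPARC and modified lipoproteins, had 1.17, 6.09 and 11.6 FPKM in NC, 29.2, 36.02 and 44.6 FPKM in HFD, and 11.5, 14.1 and 35.8 FPKM in SZ-A mice. All HFD mice were above all NC mice, but SZ-A replicate 5, at 35.8 FPKM, lay among the HFD mice.

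Cd163, the receptor for haptoglobin-haemoglobin complexes, had 0.440, 10.8 and 28.3 FPKM in NC, 6.33, 10.3 and 16.3 FPKM in HFD, and 4.01, 7.26 and 13.1 FPKM in SZ-A mice. Its chow mice were spread more widely than both diet groups together, and all groups overlapped. Lyve1, the hyaluronan receptor that marks perivascular macrophages and lymphatic vessels, had 0.0705, 6.54 and 16.4 FPKM in NC, 3.65, 5.75 and 19.3 FPKM in HFD, and 4.92, 10.1 and 12.6 FPKM in SZ-A mice. A single HFD mouse, replicate 6, held the highest Lyve1 level of the study, and the group medians ran in a different order from those of Mrc1.

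Of the lectins, Siglec1, which binds sialic acid on other cells and on viruses, had 0.125, 1.84 and 2.21 FPKM in NC, 14.3, 19.2 and 22.6 FPKM in HFD, and 3.46, 4.03 and 8.48 FPKM in SZ-A mice. All 3 groups were apart from each other without overlap, with SZ-A mice in between. Clec10a, the galactose-type lectin, had 0.544, 12.3 and 31.2 FPKM in NC, 34.8, 47.2 and 56.0 FPKM in HFD, and 14.9, 23.8 and 103 FPKM in SZ-A mice. The 103 FPKM belonged to SZ-A replicate 5, the highest Clec10a value of all mice, and the next SZ-A mouse had 37.6 FPKM.

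Folr2, folate receptor beta, had 0.0444, 1.59 and 2.72 FPKM in NC, 13.5, 21.9 and 30.8 FPKM in HFD, and 2.74, 4.57 and 6.93 FPKM in SZ-A mice. Its groups were also free of overlap, although the lowest SZ-A mouse and the highest NC mouse nearly touched. Ms4a6c, a four-pass membrane protein of monocytes and macrophages, had 0.335, 1.19 and 2.25 FPKM in NC, 8.49, 10.1 and 11.7 FPKM in HFD, and 2.56, 3.24 and 5.63 FPKM in SZ-A mice. It too had SZ-A mice between the other groups without overlap, and its HFD mice varied little.

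The last pair of genes encodes enzymes. Cbr2, a carbonyl reductase, had 4.34, 21.3 and 32.7 FPKM in NC, 10.9, 18.2 and 24.8 FPKM in HFD, and 12.9, 14.6 and 23.3 FPKM in SZ-A mice. F13a1, the transglutaminase subunit of coagulation factor XIII, had 0.214, 8.67 and 17.8 FPKM in NC, 7.17, 14.7 and 17.7 FPKM in HFD, and 5.45, 12.0 and 17.3 FPKM in SZ-A mice. Their ranges overlapped between all groups.

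The order of the genes by median FPKM changed with the group. In NC mice Cbr2 led, followed by Clec10a and Cd163, and Siglec1, Folr2 and Ms4a6c came last. In HFD mice Mrc1 led, followed by Clec10a, Stab1, Folr2 and Siglec1, and Lyve1 came last. In SZ-A mice Clec10a and Mrc1 led with ranges that overlapped, and Folr2, Siglec1 and Ms4a6c were again the last. Neighbours in these orders overlapped in most cases, so the order is a description of medians.

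For the diet, HFD against NC, 6 of the 10 genes had an adjusted p under 0.05 from limma, all 6 higher in HFD, in a comparison where 41.1% of 14706 genes were called, 21% as higher and 20.1% as lower. All 6 also passed the threshold of the study, which also asks for a log2 difference beyond 1.5 and which 7.97% of genes passed (5.43% as higher and 2.54% as lower). In all 6, every HFD mouse was above every NC mouse, as in 12.7% of all genes, while 7.77% lay apart as lower and 20.5% in either direction. Their exact two-sided permutation p was 0.000583, the smallest that 7 mice against 6 allow. The median difference of the 10 genes was 2.28 on the log2(FPKM + 1) scale, against -0.04 over all genes tested.

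Mrc1 rose by 3.20 ± 0.49 (SE, log2 scale, adjusted p = 1.84e-04, limma) and Folr2 by 3.18 ± 0.30 (adjusted p = 2.30e-06). In mean FPKM these were ratios of 7.75 and 13.3. Siglec1 rose by 3.03 ± 0.24 (adjusted p = 4.78e-07, limma), a ratio of 12.3 between mean FPKM values. Stab1 rose by 2.595 ± 0.32, Ms4a6c by 2.36 ± 0.18 and Clec10a by 2.20 ± 0.52 (adjusted p = 0.00459 for Clec10a, limma). Without NC replicate 6 the 6 differences ran from 1.65 (Clec10a) to 2.95 (Folr2), with Mrc1 at 2.72, and all 6 passed.

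The 4 genes that did not pass had a wide range of compatible differences. F13a1 differed by 1.05 (95% interval -0.03 to 2.12, adjusted p = 0.109, limma), Lyve1 by 0.44 (-0.82 to 1.70), Cd163 by 0.30 (-0.90 to 1.49) and Cbr2 by 0.07 (-0.68 to 0.82). Without NC replicate 6 the same 6 genes were called, and the direction turned for 3 of the others, with Cd163 at -0.22, Lyve1 at -0.046 and Cbr2 at -0.28. F13a1 was then at 0.54 (adjusted p = 0.149, limma). Without NC replicate 3, the chow mouse with the highest level of 8 of the 10 genes, F13a1 passed as well (1.33, adjusted p = 0.0391, limma).

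**Figure D2:**
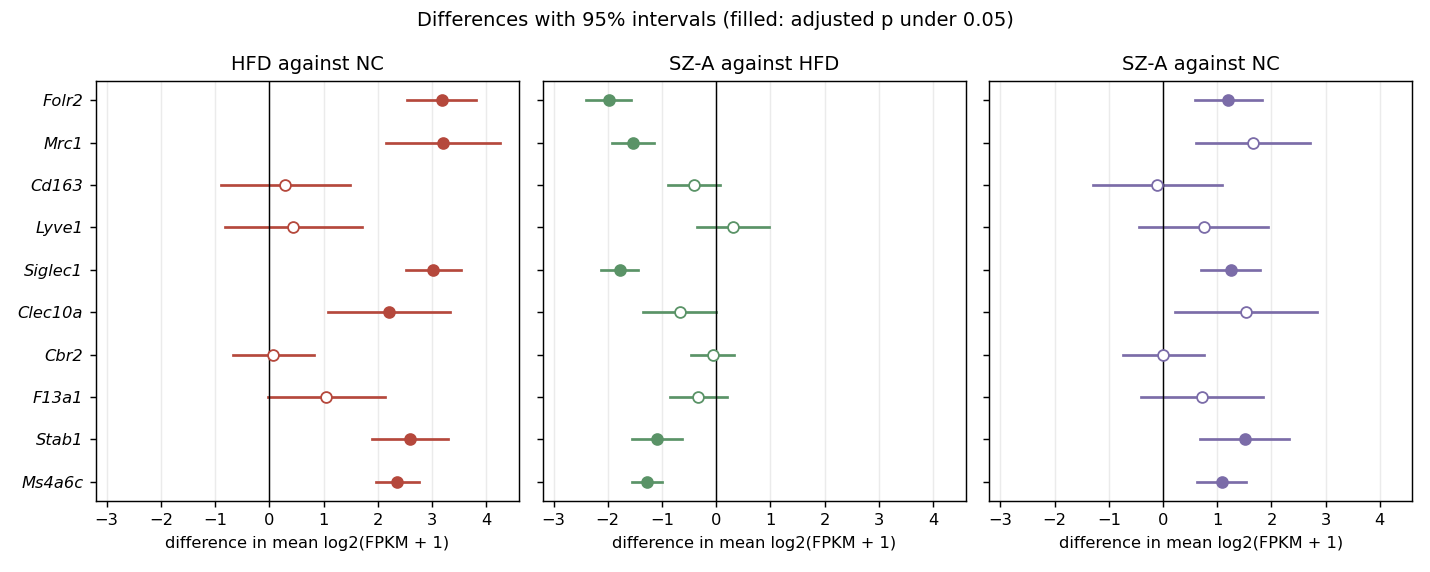
Difference in mean log2(FPKM + 1) of each gene with its 95% interval from limma, for HFD against NC, SZ-A against HFD and SZ-A against NC; filled points had an adjusted p under 0.05. In HFD against NC all 10 points lie to the right of 0 and 6 are filled. In SZ-A against HFD 9 points lie to the left and 5 are filled.

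In SZ-A against HFD, 5 of the 10 genes were called, all 5 lower with SZ-A, where 22.8% of 14695 genes were called, 13.3% as lower and 9.47% as higher. Folr2, Siglec1 and Mrc1 passed the threshold of the study as well, which 0.864% of genes passed (0.558% as lower and 0.306% as higher). In 4 genes, Folr2, Siglec1, Mrc1 and Ms4a6c, all SZ-A mice lay under all HFD mice, as in 4.01% of all genes, while 2.07% lay apart as higher and 6.08% in either direction. The exact two-sided permutation p of these 4 was 0.000583, the smallest that 7 mice against 7 allow. The median difference of the 10 genes was -0.88, against 0.03 over all genes tested.

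Folr2 fell by 1.98 ± 0.19 (SE, log2 scale) from a mean of 21.2 to 4.56 FPKM. Siglec1 fell by 1.78 ± 0.16 (adjusted p = 9.25e-05, limma) from 18.3 to 4.70 FPKM, and Mrc1 by 1.54 ± 0.18 (adjusted p = 3.04e-04) from 70.2 to 23.6 FPKM. Ms4a6c fell by 1.28 ± 0.13 (adjusted p = 1.09e-04, limma) and Stab1 by 1.09 ± 0.21 (adjusted p = 0.00300). The value of Mrc1 was close to the threshold of 1.5 and lay under it when any of HFD replicate 1 or SZ-A replicates 1, 3 or 7 was left out, which leaves 2 genes past that threshold.

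Clec10a differed by -0.67 (95% interval -1.34 to 0.01, adjusted p = 0.135, limma), and this rested on SZ-A replicate 5. Without that mouse Clec10a was lower by 0.97 in log2 units and passed (-0.97, adjusted p = 0.00212, limma). Mitochondrial genes took 11.6% of the reads of SZ-A replicate 5, the highest share of all mice. Its FPKM values over all genes summed to 463423, against 290663 to 330625 in the other SZ-A mice. The part of either in its Clec10a value was not tested. Cd163 differed by -0.40 (-0.88 to 0.07), F13a1 by -0.33 (-0.86 to 0.20) and Cbr2 by -0.06 (-0.46 to 0.33), none past the test. Lyve1 was the only one of the 10 with a higher mean in SZ-A mice, by 0.31 (-0.35 to 0.97), which did not pass. Whether the genes that fell differed from those that did not pass was not tested, but the intervals of Folr2 (-2.39 to -1.57), Siglec1 and Mrc1 lay wholly below those of Lyve1 and Cbr2.

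In SZ-A against NC, 4 genes were called, all higher in SZ-A mice, where 4.61% of 14718 genes were called, 4.15% as higher and 0.455% as lower. Stab1 was higher by 1.503 ± 0.38 (SE, adjusted p = 0.0374, limma), Siglec1 by 1.25 ± 0.26 (adjusted p = 0.0126), Folr2 by 1.202 ± 0.29 (adjusted p = 0.0276) and Ms4a6c by 1.08 ± 0.21 (adjusted p = 0.00854). Only Stab1 was just past the threshold of the study, which 1.79% of genes passed (1.73% as higher and 0.0544% as lower). Siglec1, Folr2 and Ms4a6c did not overlap between the groups, as in 3.22% of all genes, while 0.347% lay apart as lower and 3.57% in either direction. In these 3 genes all treated mice lay between the chow mice and the mice on the diet alone. The median difference of the 10 genes was 1.14, against -0.00120 over all genes tested.

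Mrc1 was at 1.67 in this comparison (0.62 to 2.72, adjusted p = 0.0725, limma) and Clec10a at 1.53 (0.22 to 2.84, adjusted p = 0.184). Lyve1 was at 0.75, F13a1 at 0.72, Cbr2 at 0.00477 and Cd163 at -0.11, and none passed. Without NC replicate 6 the values were 0.98 for Clec10a, 0.26 for Lyve1, 0.21 for F13a1, -0.35 for Cbr2 and -0.63 for Cd163, again none past the test. The calls here depended on single chow and treated mice. Between 2 and 5 genes were called when 1 mouse was left out, with 5 without NC replicate 6 (Mrc1 passed, at 1.18) or without NC replicate 3, and 2 without NC replicates 1 or 5 or SZ-A replicates 3, 4 or 6.

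The mice within a group did not rank alike for all 10 genes. HFD replicate 6 had the highest Cd163, Lyve1 and F13a1 of its group (16.3, 19.3 and 17.7 FPKM) and the lowest Mrc1, Clec10a and Stab1 (50.7, 34.8 and 29.2 FPKM). HFD replicate 5 had the highest Folr2, Clec10a and Stab1 and the lowest Lyve1, Cbr2 and F13a1. Among treated mice, SZ-A replicate 6 had the highest Folr2, Mrc1, Siglec1 and Ms4a6c, and also the highest Adgre1, at 122 FPKM against 34.2 to 74.3 in the other SZ-A mice. The summed level of 9 general macrophage genes was highest in SZ-A replicate 5, at 4375 FPKM. It was 3124 FPKM in replicate 6, and 1175 FPKM in the lowest SZ-A mouse. In the NC group the order was more uniform, with replicate 3 highest in 8 genes and replicate 6 lowest in all 10.

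The 5 genes whose deviations from their group means over the 20 mice followed the mean of the 10 genes most closely were Slc43a3 (Pearson r 0.977), Fbln2, Cd93, Rhoj and Timp2. NC replicate 6 weighs heavily in this measure. Without it, over 19 mice, the 5 were Slc43a3 (0.935), Fbln2, Sept8, Maf and Cd93. Maf is also on the list of further resident macrophage genes given below. Which cells of the tissue held any of these genes was not tested. Library depth and tissue makeup differ between the mice and were not accounted for, so the values are a description only.

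Genes used as markers of macrophages in general, and those of the lipid-loaded population, were measured beside the resident genes. Other cells can hold genes of both lists, and the second includes Lpl, the adipocyte lipase. Which cells held them was not tested. With the diet (HFD against NC), 9 of 9 general macrophage genes rose, with a median difference of 3.89, and 11 of 12 genes of lipid-associated macrophages rose, with a median of 5.51. Over all genes, 21% were called as higher. Adgre1, which encodes F4/80, went from a mean of 5.94 to 204 FPKM and Csf1r, the receptor for colony stimulating factor 1, from 16.3 to 142 FPKM. Trem2 went from 1.26 to 112 FPKM and Gpnmb from 7.36 to 805 FPKM. In SZ-A against HFD, 8 of the 9 general and 9 of the 12 lipid-associated genes fell, with medians of -1.37 and -1.59. Over all genes, 13.3% were called as lower. Adgre1 fell by 1.86, Csf1r by 1.37, Trem2 by 1.59 and Gpnmb by 1.76 on the log2 scale.

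**Figure D3:**
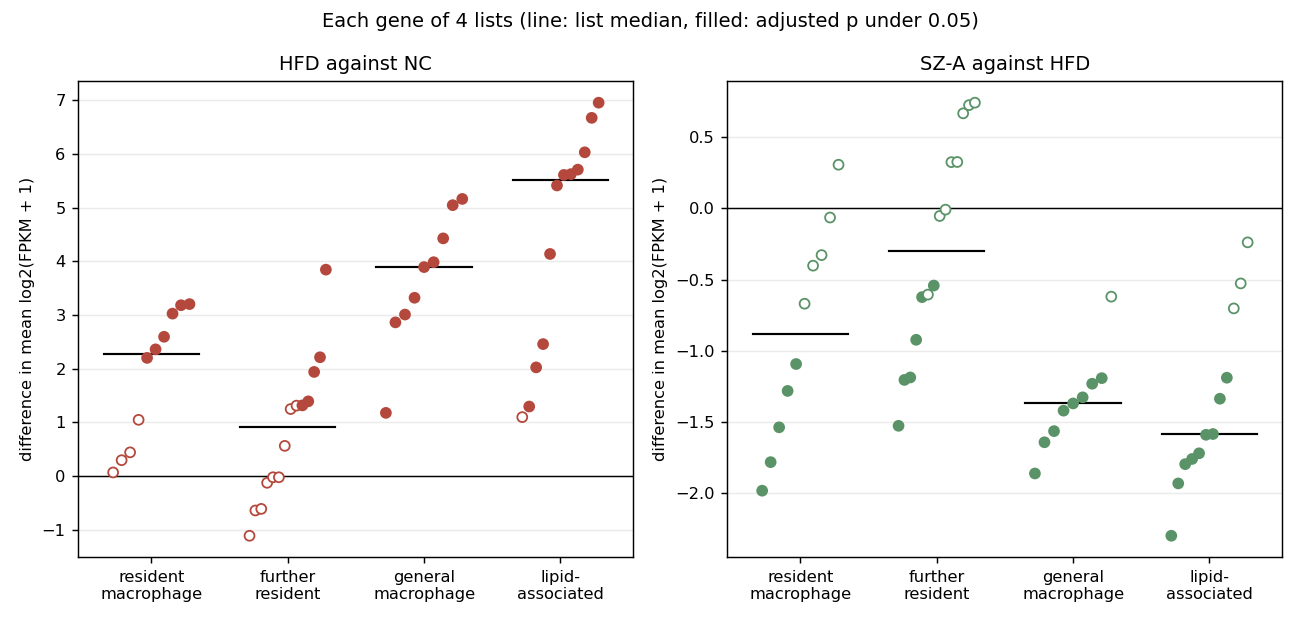
Difference in mean log2(FPKM + 1) of each gene in 4 lists, resident macrophage genes, further resident macrophage genes, general macrophage genes and lipid-associated macrophage genes, for HFD against NC and SZ-A against HFD; filled points had an adjusted p under 0.05 and lines are list medians. In HFD against NC the medians are 2.28, 0.91, 3.89 and 5.51, and in SZ-A against HFD they are -0.88, -0.30, -1.37 and -1.59.

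The resident genes were therefore also set against the mean log2(FPKM + 1) of the 9 general macrophage genes of the same mouse. On this scale nearly every gene of the tissue differs, because the reference itself moves. In HFD against NC 99% of all genes were called, 98.8% as lower and 0.265% as higher, so the count of resident genes, 7 lower of 10, is no result about them, and only the sizes are given. The median over all genes was -3.69 on this scale. Cbr2 was lower by 3.58 log2 units relative to the reference (-3.58 ± 0.33, SE), Cd163 by 3.36 (-3.36 ± 0.42) and Lyve1 by 3.21 (-3.21 ± 0.47). F13a1 was at -2.60 ± 0.36. Folr2 was at -0.47 (95% interval -1.06 to 0.12), Mrc1 at -0.45 (-1.10 to 0.20) and Siglec1 at -0.63 (-1.26 to 0.00222), with intervals that include 0. Others were Clec10a at -1.45, Ms4a6c at -1.29 and Stab1 at -1.06.

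In SZ-A against HFD, where 94.2% of all genes were called on this scale, 94.1% as higher and 0.0544% as lower, the count of 5 resident genes is again no result about them. The median over all genes was 1.39. Lyve1 was higher relative to the reference by 1.66 ± 0.50 (SE), Cbr2 by 1.29 ± 0.37, F13a1 by 1.03 ± 0.43, Cd163 by 0.96 ± 0.41 and Clec10a by 0.69 ± 0.24, all 5 past the test. Folr2 was at -0.62 (-1.26 to 0.02), Siglec1 at -0.42 (-1.06 to 0.21), Mrc1 at -0.18 (-0.70 to 0.34), Ms4a6c at 0.08 (-0.56 to 0.71) and Stab1 at 0.27 (-0.24 to 0.77). These 5 did not pass. Without HFD replicate 5 the count was 3. In SZ-A against NC, with 97.6% of genes called, 97.4% as lower and 0.231% as higher, 8 of the 10 were lower relative to the reference, and Mrc1 (-0.63) and Clec10a (-0.76) did not pass.

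**Figure D4:**
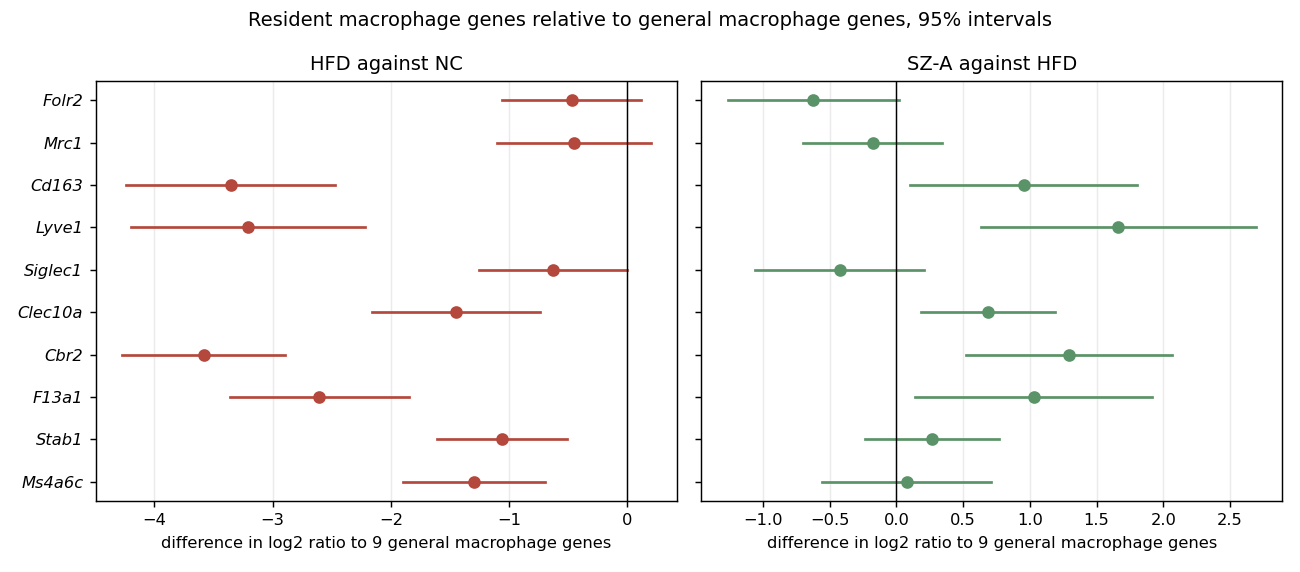
Difference of each gene between groups after subtracting, in each mouse, the mean log2(FPKM + 1) of 9 general macrophage genes, with 95% intervals from limma, for HFD against NC and SZ-A against HFD. Folr2, Mrc1 and Siglec1 lie within 0.63 log2 units of 0 in both panels, while Cbr2, Cd163 and Lyve1 lie from -3.58 to -3.21 in the first and from 0.96 to 1.66 in the second.

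Of 14 further genes used as markers of resident macrophages that were measured, 5 rose in HFD against NC and 9 did not pass, with a median of 0.91, in a comparison where 41.1% of all genes were called and 21% as higher. Among those that rose, Pf4, a platelet-type chemokine of resident macrophages, rose by 2.21, Selenop, a selenium transport protein, by 1.94, Gas6, a bridge for the uptake of dying cells, by 1.39 and Maf by 1.32. Without NC replicate 6 the count became 6 higher and 3 lower. The 3 lower were Retnla, a secreted marker of alternative activation (-2.07, adjusted p = 0.00648, limma), and the C-type lectins Cd209d (-1.14) and Cd209b (-1.02). With all mice, Retnla was at -1.11 (adjusted p = 0.365, limma), at 6.07, 360 and 741 FPKM in NC mice (lowest, median and highest) and 22.9, 125 and 211 FPKM in HFD mice.

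In SZ-A against HFD, 6 of these 14 genes fell and 8 did not pass, with a median of -0.30, where 13.3% of all genes were called as lower. Among those that fell, Ccl8, a chemokine, fell by 1.204, Selenop by 1.19, Pf4 by 0.92, Gas6 by 0.62 and Maf by 0.54. Retnla was at 0.72, Cd209d at 0.74 and Cd209b at 0.67, none past the test. Without SZ-A replicate 5, Ccl8 was at -1.10 and no longer passed (adjusted p = 0.0689, limma). Timd4, Vsig4, Mgl2 and Ccl24 were not analysed here.

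Of 16 binding partners and related genes, 8 rose and 1 fell in HFD against NC, where 41.1% of all genes were called, and 4 fell in SZ-A against HFD, where 22.8% were called, so the second count is near the share over all genes. For haem handling in general, Hmox1, haem oxygenase, rose from 12.8 to 157 mean FPKM in HFD mice. It fell to 55.6 with SZ-A (log2 differences 3.49 and -1.36). Lrp1, the haemopexin receptor, rose by 2.78 and fell by 1.08. Hp, haptoglobin, did not pass in either (1.91, adjusted p = 0.0683, and -0.00838, limma), but without NC replicate 6 it passed in the first, at 1.03 (adjusted p = 0.0226, limma). For hyaluronan, the ligand of Lyve1, the other receptor Cd44 rose by 4.49 and fell by 1.47, and the hyaluronidase Hyal1 rose by 1.27. Sparc, a ligand of Stab1, rose by 1.83 (1.09 without NC replicate 6) and was at -0.23 with SZ-A without passing, and Stab2, the closest relative of Stab1, rose by 0.97. Fn1, fibronectin, a substrate of factor XIII, rose by 2.66 and fell by 1.43, and the transglutaminase Tgm2 rose by 1.003. Folr1, folate receptor alpha, went against Folr2 and fell by 1.91 in HFD mice. Its level varied widely, from 0.190 to 11.2 FPKM in NC and from 0.0312 to 7.05 FPKM in SZ-A mice. Which cells of the tissue held Folr1 was not tested. The folate carriers Slc19a1 (-0.22, and -0.10 without NC replicate 6) and Slc46a1 (-0.72) did not pass.

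Near copies of the listed genes were also measured. Ms4a6d and Ms4a6b, relatives of Ms4a6c, rose by 3.55 and 1.42 in HFD mice and fell by 1.53 and 0.85 with SZ-A, and Ms4a4c fell by 0.36 with SZ-A. Mrc2, a collagen receptor related to Mrc1, rose by 3.10 and was at -0.35 with SZ-A (adjusted p = 0.161, limma). Cd5l, a scavenger protein of the same domain family as Cd163, rose by 2.05. Of 7 such relatives, Folr1 and Stab2 included, 5 rose and 1 fell with the diet and 3 fell with SZ-A. Over all genes, 41.1% were called with the diet and 13.3% as lower with SZ-A.

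Genes that control macrophage survival and polarisation were 9 higher and 1 lower of 17 in HFD against NC, and 8 lower in SZ-A against HFD. Over all genes, 41.1% were called in the first comparison and 22.8% in the second, 13.3% as lower. Without NC replicate 6 the diet counts were 9 higher and 3 lower, the lower genes being Irf4, Pparg and Retnla. Csf1, the survival factor, rose by 1.45 and fell by 0.54, whereas Il34, the other ligand of its receptor, was at -0.13 and 0.15. Without NC replicate 6, Il34 was at 0.19 in HFD against NC. Il10ra rose by 2.62 and fell by 1.18, Stat6 rose by 1.23 and fell by 0.38, and Tgfb1 rose by 1.99 and fell by 0.91. Il13ra1 rose by 0.68 and fell by 0.74, and Il10rb rose by 1.68. Irf4, a factor of alternative activation and of adipocytes, was the gene that fell with the diet, by 2.30, and was at 0.03 with SZ-A.

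Markers of other cells were measured too. Over all genes, 41.1% were called in HFD against NC and 22.8% in SZ-A against HFD. Of 8 adipocyte genes, 1 rose in HFD against NC (Lep, leptin, by 2.85) and 7 did not pass. When NC replicate 6 was left out, Lep rose and 4 fell, Adipoq by 1.13, Cidec by 1.04, Fabp4 by 0.99 and Pck1 by 2.47, with a list median of -0.97. With SZ-A all 8 adipocyte genes had a higher mean than in HFD mice, with a median of 0.88, and Pck1 passed (1.62). Of 8 fibroblast genes, 6 rose and 1 fell in HFD against NC and 7 fell in SZ-A against HFD, with a summed level of 1102 to 1552 FPKM in HFD and 355 to 715 FPKM in SZ-A mice. Of 4 lymphatic endothelial genes measured, Reln and Itga2b fell in HFD mice and Pdpn fell with SZ-A, and Flt4, the lymphatic growth factor receptor, was at 0.27 and 0.34 without passing, while Prox1 was not analysed here. Without NC replicate 6, Pdpn also passed with the diet, as higher (1.16), and Flt4 was at 0.052. The 8 blood endothelial genes did not pass the limma test in any comparison. Of 6 dendritic cell genes 2 rose with the diet, and with SZ-A 1 rose and 1 fell, with summed levels of 10.1 to 12.7 FPKM in HFD and 8.09 to 23.0 FPKM in SZ-A mice. The dendritic cell genes Cd209a (-0.89) and Itgae (-0.41) fell with the diet as well when NC replicate 6 was left out. Genes of epithelium and smooth muscle differed between chow mice and mice on the diet. Of 6 smooth muscle genes, 4 fell in HFD against NC, with Actg2 at 5.84, 166 and 1015 FPKM in NC (lowest, median and highest) and 0.183, 0.482 and 3.22 FPKM in HFD mice, and 1 rose with SZ-A (Myh11, by 1.36). All 6 fell with the diet without NC replicate 6. Adgrg2 fell by 3.50 with the diet and rose by 1.92 with SZ-A, where replicate 2 was at 103 FPKM and the others at 1.80 to 10.3 FPKM. Bmyc, the other epididymal gene measured of 16 listed, rose by 0.80 with SZ-A, a call lost without SZ-A replicate 5 (0.67), and the keratins Krt18 and Krt19 fell by 5.23 and 3.55 with the diet. Among SZ-A mice, Krt18 was at 119 FPKM in replicate 2 and 168 FPKM in replicate 7, with a group median of 1.29 FPKM. The summed level of the smooth muscle genes was 386 and 806 FPKM in these mice, with a group median of 208 FPKM. SZ-A replicate 7 was the lowest of its group for Mrc1, Cd163, Siglec1 and F13a1. SZ-A replicate 2 was the lowest for Folr2 and Clec10a and the highest for F13a1. The part of these other cell types in the levels of the 10 genes was not tested.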

How the data were processed

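RNA-seq of eWAT from 20 mice was analysed. The authors deposited FPKM values per gene, made from reads aligned to GRCm38 with HISAT2 and counted with featureCounts (version 1.5.0-p3 in the submitters' processing notes). They ran DESeq2 on counts, which were not used here. The deposited table holds only genes above 0 in every mouse. Reads per gene were recovered from the FPKM steps (95.9 to 96.3% of values under 1000 reads were whole within 0.01) and used for depth and as an alternative. Genes whose mean over the compared mice reached 0.1 FPKM were tested as log2(FPKM + 1) with limma 3.58.1 (R 4.3.3) in each pair of groups, with Benjamini-Hochberg adjustment over all genes, a threshold of 0.05 and two-sided exact permutation tests for single genes. Fold changes on this scale understate the change of low genes. P-values judge a difference between group means against the spread between these samples. Reads per mouse limit precision most for Folr2, Ms4a6c and Lyve1.

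The 10 genes and all other lists were chosen with earlier results of these data known, so list counts are descriptions. Named genes were the 10 in every comparison, genes of the further resident, polarisation, partner and near-copy lists that passed a test or are known partners, Adgre1, Csf1r, Trem2, Gpnmb, and the 5 most alike genes among those whose mean reached 1 FPKM. Cd209d, Cd209b, Retnla and the genes named among markers of other cells were chosen after their values were seen. A gene of these lists is counted but not reported here by name. The alternatives were other pseudocounts, filters, scalings, weights, reads with voom, a replicate block, other reference genes and each mouse left out.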

Additional observations from a re-analysis of the deposited data

Results flagged for a closer look

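The levels of the 10 genes were examined for a single mouse far from the rest of its group, in 30 groups of mice on the log2(FPKM + 1) scale, of which chance alone sets apart about 1 in 20. In 2 of them a mouse stood apart by Dixon's criterion on that scale. Siglec1 was at 8.48 FPKM in SZ-A replicate 6, where the next highest SZ-A mouse had 4.71 FPKM, a gap of 0.673 of the range of the group in log2(FPKM + 1). Cbr2 was at 4.34 FPKM in NC replicate 6, where the next lowest chow mouse had 16.2 FPKM, a gap of 0.636 of the range in log2(FPKM + 1). On the FPKM scale itself, an alternative chosen after seeing the data, 5 values stood apart and that of Cbr2 did not. They were Siglec1 in SZ-A replicate 6 (gap 0.752 of the range), Clec10a and Stab1 in SZ-A replicate 5 (0.741 and 0.633), Lyve1 in HFD replicate 6 (0.613) and Mrc1 in HFD replicate 1 (0.609).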

How the results depend on the processing

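In HFD against NC and SZ-A against HFD the called genes held their direction under every alternative run. Leaving out 1 mouse gave 6 to 7 called genes in HFD against NC (6 past the threshold of the study, 7 to 9 relative to general macrophage genes), 5 to 6 in SZ-A against HFD (2 to 3 and 3 to 6) and 2 to 5 in SZ-A against NC (0 to 2 and 7 to 10). A fold change above 1.5 in place of the log2 threshold gave 5 genes in SZ-A against HFD and 4 in SZ-A against NC. In SZ-A against NC the count of called genes fell from 4 to 1 with a pseudocount of 0.01 and to 2 with voom on recovered reads, and a pseudocount of 0.1 gave 3 past the threshold of the study. Relative to macrophage genes it was 3 with other reference genes, 5 with Csf1r alone and 5 with a pseudocount of 0.1. The causes were not tested.

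Differences near 0 changed sign. In HFD against NC, Cd163 was at -0.064 with array weights and ran from -0.22 to 0.64 with 1 mouse left out, Lyve1 from -0.046 to 0.76 and Cbr2 from -0.28 to 0.25, and Cbr2 was at -0.035 with quantile normalization, -0.11 with array weights and -0.058 with voom. In SZ-A against HFD, Cbr2 was at 0.065 with array weights and ran from -0.18 to 0.00731. In SZ-A against NC, Cd163 was at 0.067 and 0.10 with pseudocounts of 0.1 and 0.01 and 0.00237 with voom, and ran from -0.63 to 0.24, and Cbr2 was at -0.066 with quantile normalization, -0.00270 with median-ratio scaling, -0.046 with array weights and -0.067 with voom, and ran from -0.35 to 0.18.

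Replicate numbers do not pair the mice: same-numbered mice correlated at -0.28 to 0.30, -0.39 to 0.37 and -0.41 to 0.58 in the 3 comparisons, and 1 of 12, 2 of 14 and 2 of 12 mice correlated best with their own number. With the number as a replicate block, 6 and 5 genes were called in HFD against NC and SZ-A against HFD, and 0 in SZ-A against NC by either threshold, with Cd163 at 0.013. Replicate 7 has no chow partner in that fit.

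Counting error is largest for values that rest on few reads, such as the 1 read of Folr2 and 3 of Lyve1 in NC replicate 6.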

Other observations

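Mast cell genes, which are not macrophage genes, moved in the same comparisons. Of 5 measured, the proteases Cpa3, Mcpt4, Cma1 and Tpsb2 rose in HFD against NC and fell in SZ-A against HFD. Cpa3 went from a mean of 1.61 FPKM in NC to 39.0 FPKM in HFD and 3.76 FPKM in SZ-A mice, a log2 difference of -2.64 between the last pair. Kit, the receptor for stem cell factor, did not pass in either (0.38 and -0.43), and passed without NC replicate 6 in the first. Of 6 monocyte genes, 3 rose and 1 fell with the diet (4 and 1 without NC replicate 6), and 2 fell with SZ-A. Beside the mast cell and monocyte counts, 41.1% of all genes were called with the diet and 22.8% in SZ-A against HFD.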
